A study of Mus musculus with 4 samples.

Results

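Type I interferon-induced genes are the transcripts that cells make in response to interferons alpha and beta. A listed set of 39 mouse gene symbols was followed here through CD45+ (leukocyte) cells of the inflamed spinal cord, and 37 of the 39 matched a row by symbol among the 32285 genes of the count matrices. Mx1 and Mx2 matched no row and were not analysed here. The mice were C57BL/6 with experimental autoimmune encephalomyelitis, EAE, an immunisation-induced autoimmune disease of the central nervous system. A control agent (Ctrl MO) or Reg1-MOs were injected into the head on day 9 after immunisation, and spinal cords were taken on day 16. Each treatment gave 2 single-cell libraries, called control 1, control 2, Reg1-MO 1 and Reg1-MO 2 below, and every cell was from an immunised animal. The labels spell out neither Reg1 nor MO; the first is taken to mean Regnase-1 (gene Zc3h12a), which cuts inflammatory mRNAs, and the second morpholino. Age, sex and the number of mice per library are unstated, so p-values measure only the spread between 2 libraries of a group.

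Type I interferons bind the IFNAR1/IFNAR2 receptor, whose kinases JAK1 and TYK2 activate the transcription factor complex ISGF3. It contains STAT2 and IRF9 and binds the interferon-stimulated response element (ISRE) in the promoters of antiviral genes. The induced proteins block viral RNA and protein synthesis, sense foreign nucleic acids, and both amplify and restrain the response. Interferon gamma, the T and NK cell product, acts at a different element (GAS), and many of the genes below respond to both kinds of interferon. In EAE, interferon beta and its receptor on myeloid cells are known to limit disease.

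The 39 genes were sorted by what their products do. The IFIT proteins (Ifit1, Ifit2, Ifit3, Ifit3b) bind viral RNA, and the OAS family (Oas1a, Oas1g, Oas2, Oas3, Oasl1, Oasl2) holds synthetases that activate RNase L together with 2 relatives, Oasl1 and Oasl2. The nucleic acid sensors are Ddx58 (RIG-I), Ifih1 (MDA5), Dhx58 (LGP2), Eif2ak2 (PKR) and Zbp1. Transcription factors are Stat2, Irf9 and Irf7. Isg15 is a ubiquitin-like modifier, Usp18 removes it and restrains the receptor, and Herc6 is a ligase for it, grouped here with the TRIM protein gene Trim30a. Rsad2 (viperin), Cmpk2 and Isg20 are nucleotide or RNA enzymes, Bst2 (tetherin) and Ifitm3 act in membranes, and Ifi203, Ifi204 and Ifi205 belong to the DNA-binding PYHIN family. Ifi44, Ifi27l2a, Ifi35, Xaf1, Rtp4, Parp14 and Epsti1 are the other induced genes. All 37 matched genes are annotated as protein-coding, and several lie side by side: on GRCm38 the IFIT genes lie on chromosome 19 from 34550694 to 34650009, Oas2, Oas3, Oas1g and Oas1a on chromosome 5 from 120730333 to 120907521, the PYHIN genes on chromosome 1 from 173747293 to 174031810, and Rsad2 and Cmpk2 on chromosome 12 from 26442746 to 26479837.

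The element these genes are known for can be read in their promoters. RefSeq (GRCm38.p6) windows from 250 bases before to 50 bases after the start site were available for 29 of the 37 genes and not for Oas2, Dhx58, Zbp1, Usp18, Ifi204, Ifi27l2a, Rtp4 and Parp14. The ISRE core, searched on both strands as GAAA, any 2 bases and GAAA, was in the windows of 17 of the 29 genes (58.6%) and of 1079 of all 27025 genes in the table (3.99%). The letters of a GAS element, TTCNNNGAA, were in 7 of the 29 (24.1%) and in 9.55% of all genes. Stretches of 30 bases are shown for genes with the most cores (Isg15, Bst2), for neighbouring copies that can be compared (the Oas1, IFIT and PYHIN genes) and for Rsad2, on the strand of the gene and 5′ to 3′, with the cores in capitals; a core on the opposite strand reads as TTTC and TTTC with a gap. Matches are letters in a window, not measured binding sites.
Isg15, chr4:156200871-156200900, minus strand: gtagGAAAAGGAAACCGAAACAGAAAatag
Bst2, chr8:71537580-71537609, minus strand: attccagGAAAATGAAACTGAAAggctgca
Oas1a, chr5:120907523-120907552, minus strand: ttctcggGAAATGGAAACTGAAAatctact
Oas1g, chr5:120887609-120887638, minus strand: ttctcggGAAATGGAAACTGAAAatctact
Ifit3, chr19:34583363-34583392, plus strand: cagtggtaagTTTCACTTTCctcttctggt
Ifit3b, chr19:34607759-34607788, plus strand: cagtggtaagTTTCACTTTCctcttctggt
Ifit1, chr19:34640775-34640804, plus strand: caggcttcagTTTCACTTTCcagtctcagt
Rsad2, chr12:26456553-26456582, minus strand: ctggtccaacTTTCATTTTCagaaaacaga
Ifi203, chr1:173942508-173942537, minus strand: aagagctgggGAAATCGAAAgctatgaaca
Ifi205, chr1:174031870-174031899, minus strand: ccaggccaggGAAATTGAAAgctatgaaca

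Isg15 carried 3 overlapping cores in a row, whose first base lay 78 bases before the start site, and Bst2, Oas1a and Oas1g carried 2 overlapping cores. Ifit1, Ifit3, Ifit3b, Ifi205 and Ifitm3 held 2 separate cores each, of which at most 1 is printed. Trim30a held 1 core in each of 2 windows, which belong to different start sites and are not printed. The stretches printed for Oas1a and Oas1g have the same letters, as do those for Ifit3 and Ifit3b, which are neighbouring copies. No core was in the windows of Ifit2, Oasl1, Oasl2, Irf9, Irf7, Herc6, Cmpk2, Isg20, Ifi44, Ifi35, Xaf1 and Epsti1, which says only that these letters are not in those windows. Copies also share transcript ends, and the reads of 91 bases were counted at the 3′ end. Of the possible 91-base stretches near the transcript ends, 42.2% of those of Oas1a also occur in Oas1g, 29.5% of those of Ifi205 in Ifi211 or Mndal, 20.9% of those of Herc6 in Gm45193, 17.7% of those of Trim30a in Trim30d and 6.34% of those of Ifit3 in Ifit3b, so the levels of these genes are less certain.

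The 4 libraries held 29379 barcodes and 75472324 to 174552218 UMIs each (a UMI marks 1 captured RNA molecule). After filters 4949 to 8052 cells per library were used, 26803 in all, with medians of 9947.5 to 12103 UMIs. Clusters were built without the interferon-induced genes and 24 of the 28 were named from markers, with "-like" for a name that rests on transcripts. Of the barcodes, 10 to 75 occurred in both libraries of a pair. Zc3h12a, in counts per 1000000 UMIs of a class, was at 48.9 and 59.2 in the macrophage-like cells of control 1 and 2 against 47.5 and 48.7 in Reg1-MO 1 and 2, and at 62.6 and 140 against 58.5 and 77.8 in microglia-like cells. In neutrophil-like cells it was at 45.4 and 43.8 against 54.6 and 53.7, and in CD8 T-like cells at 55.6 and 55.9 against 71.2 and 58.1. The groups overlapped in microglia-like cells, both Reg1-MO libraries were lower in macrophage-like cells and both were higher in the other two, and since the target site of the Reg1-MOs is not given, the transcript level does not check the labels.

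Conventional dendritic cell-like and macrophage-like cells of the Reg1-MO libraries held the most interferon-induced RNA of the named classes. Mast/basophil-like cells held the least in every library, but numbered only 3 and 32 in control 1 and 2 and 3 and 2 in Reg1-MO 1 and 2. Levels are given in counts per 1000000 UMIs of the class (CPM), with control 1 and control 2 first and, after "against", Reg1-MO 1 and Reg1-MO 2. Each molecule is counted once at its 3′ end, so the value needs no scaling by gene length. Summed over the 37 genes, conventional dendritic cell-like cells held 6476 and 3500 CPM against 7297 and 8776. In macrophage-like cells the sum was 5089 and 2221 against 6601 and 7644, and in microglia-like cells 4887 and 2985 against 5208 and 4500. In these 3 classes control 2 was far below the other libraries, and among macrophage-like cells the highest library held 3.44 times the lowest. Control 2 was also lowest in the plasmacytoid dendritic cell-like, T-like, neutrophil-like and progenitor-like sums that follow. Over all cells the sum was 4124.5 and 2030 CPM against 5370 and 5208. Plasmacytoid dendritic cell-like cells, specialised interferon producers, had steadier sums, 5594 and 4660 against 5909 and 5827, from only 43 and 35 cells in the controls. Most of each sum was the single gene Bst2, whose levels are given below, so the steadiness says little about the other genes. The T-like sum was 3189 and 2667 against 3176 and 3640, and the highest library was 1.37 times the lowest. The sum was 1601 and 1758 against 2397 and 2062 in NK/ILC1-like cells, in neutrophil-like cells 1625 and 1156 against 2178 and 2948, and progenitor-like cells 1094 and 992 against 2700 and 2518. Both Reg1-MO libraries lay above both controls in all classes whose sums are given here except microglia-like and T-like cells.

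**Figure D1:**
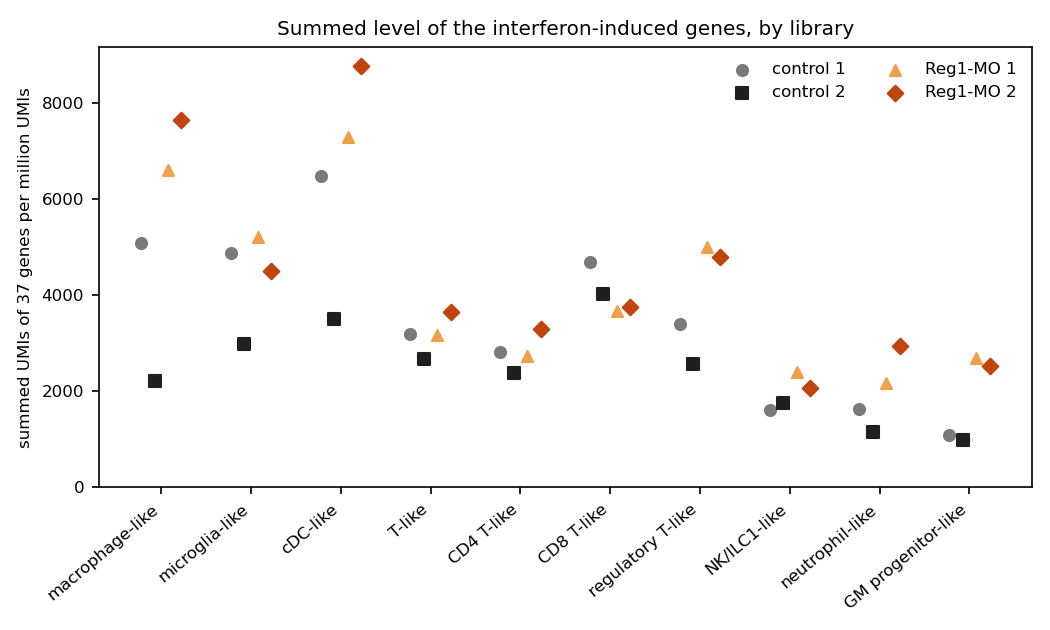
Summed level of the 37 interferon-induced genes in CPM (vertical axis, from 0) in each cell class or T cell subset (horizontal axis), with 1 point per library. Control 2 is the lowest point in the macrophage-like (2221), microglia-like (2985) and conventional dendritic cell-like (3500) classes, and in CD8 T-like cells both controls (4684 and 4016) lie above the Reg1-MO libraries.

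The most abundant genes overlapped between classes. Ifitm3, Ifi27l2a, Bst2 and Ifi204 had the highest levels in both macrophage-like and microglia-like cells, and Epsti1 led in both T-like controls and NK/ILC1-like cells. Ifitm3, which keeps viruses from fusing with endosomal membranes, led in conventional dendritic cell-like cells at 3015 and 1732 CPM against 2957 and 3328. NK/ILC1-like cells were lowest for Ifitm3, at 22 and 8.92 against 35.4 and 9.55, and the highest class mean was 145 times the lowest. Bst2, which holds budding virions at the cell surface, reached 3109 and 3037 against 3384 and 3170 in plasmacytoid dendritic cell-like cells, whose own marker it is in mice. In those same cells the IFIT genes were close to nothing, with 2, 0, 1 and 2 UMIs of Ifit3 in control 1, control 2, Reg1-MO 1 and Reg1-MO 2. Of the 7 classes with at least 50 cells in every library, Epsti1 had its highest means in NK/ILC1-like and T-like cells, with 809 and 902 against 622 and 612 in T-like cells and 728 and 1045 against 925 and 880 in NK/ILC1-like cells. Neutrophil-like cells held 39 and 28.7 against 52.0 and 47.8 of Epsti1. The PYHIN gene Ifi205 was at 328 and 159 against 406 and 348 in conventional dendritic cell-like cells and at 0.885 and 0 against 1.51 and 1.12 in T-like cells.

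**Figure D2:**
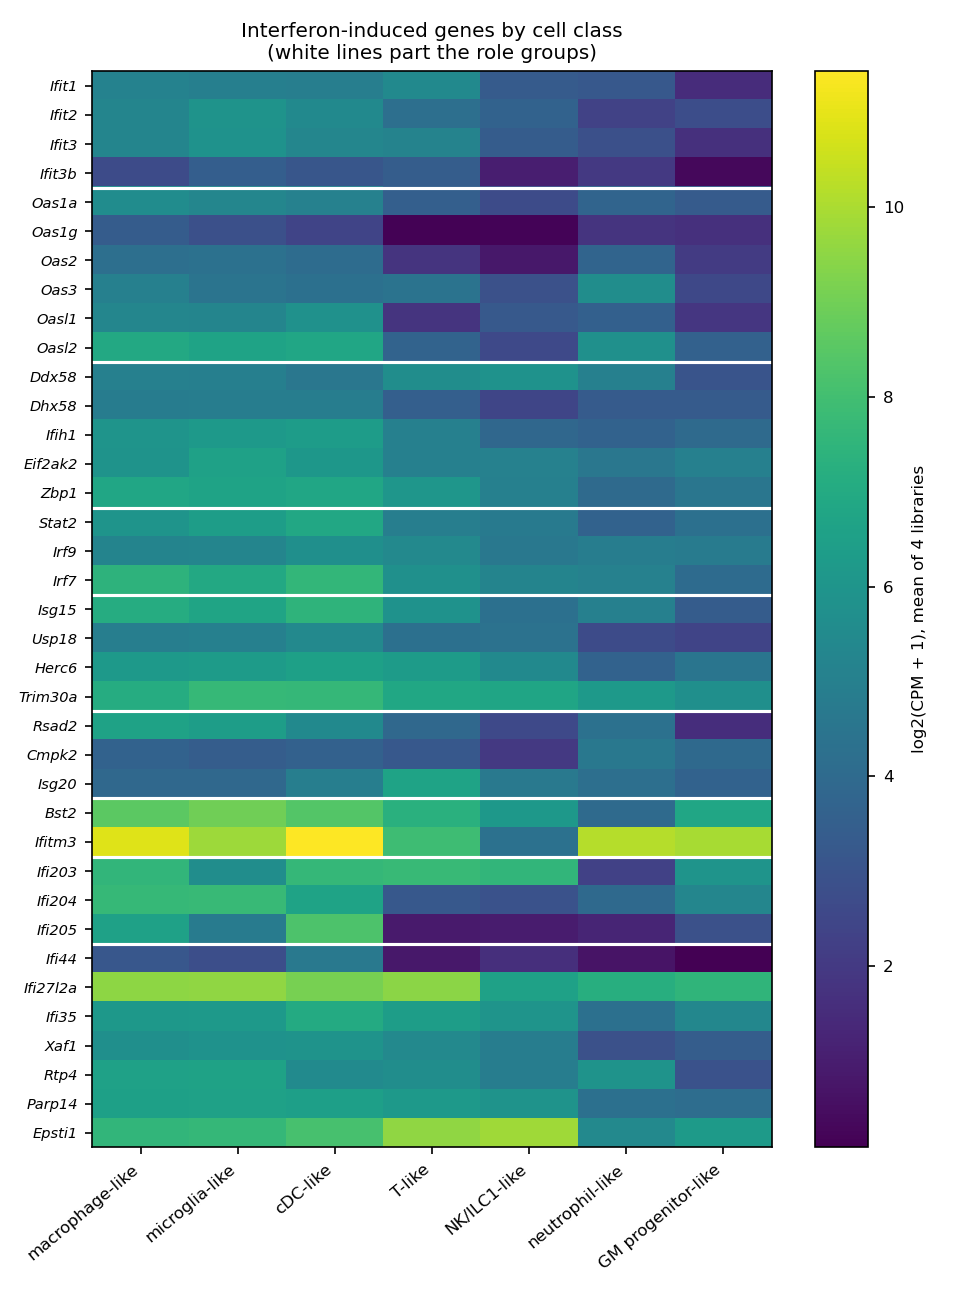
Mean level over the 4 libraries, as log2(CPM + 1) on the colour scale, of the 37 genes (rows, in role groups) in the 7 classes with at least 50 cells in every library (columns). Ifitm3 is brightest in conventional dendritic cell-like cells and dimmest in NK/ILC1-like cells, Epsti1 is brightest in NK/ILC1-like and T-like cells, and Oas1g is dark throughout.

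A gene was called shared when it reached 20 CPM in every library of the 7 classes with at least 50 cells in each library, and restricted when its lowest library in 1 class was at least 4 times its highest library in any other. By this rule 3 genes were shared, 0 were restricted, 33 were neither and Oas1g reached 20 CPM in no class. Plasmacytoid dendritic cell-like cells, with 43 and 35 cells in the controls, did not enter the rule. Their Bst2 level, given above, exceeded the highest mean of Bst2 in the 7 classes, 501 CPM in microglia-like cells. The shared genes were Epsti1, Ifi27l2a and Trim30a. Trim30a, a TRIM protein that dampens Toll-like receptor signalling, was the most even of the 3: microglia-like cells held 184 and 204 CPM in the controls against 195 and 230, progenitor-like cells 31.9 and 30.9 against 75.5 and 71.3, and the highest class mean was 3.88 times the lowest. The corresponding ratios were 7.88 for Ifi27l2a, a small mitochondrial membrane protein, and 21.4 for Epsti1. Raising the minimum to 50 CPM left 0 shared genes, and leaving out control 2 added Eif2ak2. Lowering the fold to 2 left 0 genes restricted.

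Among the classes of this rule, the gene nearest to being restricted was Isg20, an RNA exonuclease, in T-like cells. It was at 99.7 and 92.4 CPM against 107 and 109 there. The highest library of any other class was Reg1-MO 1 of NK/ILC1-like cells at 46.6, so the gap was 1.98-fold. Ifi44 followed, at 25.6 and 13 against 27.5 and 31.6 in conventional dendritic cell-like cells, with a gap of 1.16-fold to the next class. Oas3 and Cmpk2 were the 2 genes whose highest class mean was in neutrophil-like cells, at 47.2 and 30.8 against 50.8 and 67.0 for Oas3 and at 28.6 and 22.1 against 22.9 and 22.8 for Cmpk2, and both overlapped other classes.

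The number of molecules per cell was compared in macrophage-like and T-like cells. Each cell was thinned at random to 2000 UMIs to remove differences in depth, which left out 9 to 26 shallower macrophage-like cells per library. The median macrophage-like cell then held 9 and 4 UMIs of the 37 genes against 11 and 14, against unthinned medians of 74, 34, 91 and 95. The 10% of these cells with the most held 26.2% to 29.0% of the thinned UMIs, and 5.42% of the cells of control 2 held none, against 0.19% to 0.37% in the other libraries. Free RNA can add UMIs of abundant genes to any droplet, so these numbers are not read as shares of expressing cells. T-like cells had medians of 5 and 4 against 5 and 5.

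Macrophage-like cells are the monocyte-derived phagocytes of the lesion, and their interferon-induced genes were compared between Reg1-MO and control first. All 37 genes had a log2 fold change above 0, from 0.50 to 1.99 with a median of 0.96, where 48.4% of the 13073 genes tested were above 0 and their median was -0.01. The edgeR test called 0 of the 37 at an adjusted p under 0.05, and also 0% of all genes tested. At an unadjusted p under 0.05, 9 of the 37 were higher (9.32% of all genes). DESeq2 called Isg20, Ifi203 and Ifitm3, among 618 of all 21165 genes. Both Reg1-MO libraries were above both controls for 34 of the 37 genes, against 28.8% of all genes. Control 2 was the lowest library for 37 of 37, against 36% of all genes. The result therefore rested on which control was used: without control 1 all 37 were called, as were 2353 of all 13354 genes, with a median of 1.98, and without control 2 none was, against 60 of all 13773 genes, and the median was 0.39.

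Among the named genes, Ifi203 had TMM-scaled levels (CPM corrected for composition) of 155 and 66.6 against 247 and 280, a log2 fold change of 1.25 ± 0.40 (SE; edgeR adjusted p = 0.226). Isg20 was at 10.6 and 4.16 against 19.8 and 22.9 (1.51 ± 0.43, adjusted p = 0.211). In both genes the groups did not overlap, with control 2 lowest. Ifitm3, the most abundant, was at 1681 and 969 against 2162 and 2680 (0.87 ± 0.30, adjusted p = 0.235), and Ifi27l2a at 602 and 196 against 930 and 1182 (1.40 ± 0.53, adjusted p = 0.254). Irf9, the DNA-binding part of ISGF3, was at 33.4 and 24.3 against 39.5 and 45.7 (0.56 ± 0.19, adjusted p = 0.231). The ranges of log2 fold changes were 0.96 to 1.51 for the 4 IFIT genes, 0.59 to 1.42 for the 6 OAS genes, 0.73 to 1.03 for the 5 sensors and 0.80 to 1.99 for the 3 PYHIN genes, none of them called.

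The class pools clusters that were present in different amounts in the 2 groups, so each was also fitted by itself, a step added after the class results had been seen. Cluster 3, led by Vcan and F13a1, genes of recently arrived monocytes, held 378 and 410 control cells and 105 and 122 Reg1-MO cells. There 35 of the 37 genes passed the filter on low counts (Ifit3b and Ifi44 did not) and 26 rose at an edgeR adjusted p under 0.05, against 3.39% of the 9546 genes tested. All 35 were above 0 (49.7% of all genes), with a median of 1.52 against -0.0024. Control 2 was the lowest library for 31 of the 35, for which no share over all genes is given. By role the called genes were 5 of 6 OAS genes, 5 of 5 sensors, 3 of 3 PYHIN genes, 2 of 2 membrane proteins, 2 of 3 transcription factors, 3 of 4 of the ISG15 and TRIM group, 1 of 3 IFIT genes, 0 of 3 nucleotide and RNA enzymes and 5 of 6 of the others.

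Ifi203 had the smallest p in cluster 3, with 71.2 and 56.6 TMM-scaled CPM against 229 and 189 (log2 fold change 1.71 ± 0.15, adjusted p = 0.0012). Isg15 was at 10.8 and 6.17 against 43.8 and 79.4 (2.89 ± 0.32, adjusted p = 0.0020), and Usp18, which strips Isg15 from proteins, at 4.73 and 5.35 against 23.5 and 23.2 (2.20 ± 0.28, adjusted p = 0.0039). Both members of that pair rose at least 4-fold, and neither overlapped between the groups. Irf7, the factor that amplifies interferon production, was at 35.1 and 22.2 against 85.9 and 148 (2.05 ± 0.26, adjusted p = 0.0040). Oasl2 was at 23.2 and 19.5 against 61.6 and 92.7 (1.87 ± 0.21, adjusted p = 0.0020) and Rtp4, a Golgi chaperone, at 14.4 and 11.7 against 44.6 and 78.1 (2.25 ± 0.26, adjusted p = 0.0024). In all 6 the Reg1-MO libraries were higher, and Reg1-MO 2 was the highest for Isg15, Irf7, Oasl2 and Rtp4. Ifi27l2a was at 424 and 240 against 1162 and 1671 (2.09 ± 0.24, adjusted p = 0.0024), and Bst2 at 78.6 and 57.0 against 163 and 178 (1.34 ± 0.16, adjusted p = 0.0026). Ifitm3 rose from the highest base, 2997 and 2081 against 4342 and 4757 (0.84 ± 0.14, adjusted p = 0.011).

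**Figure D3:**
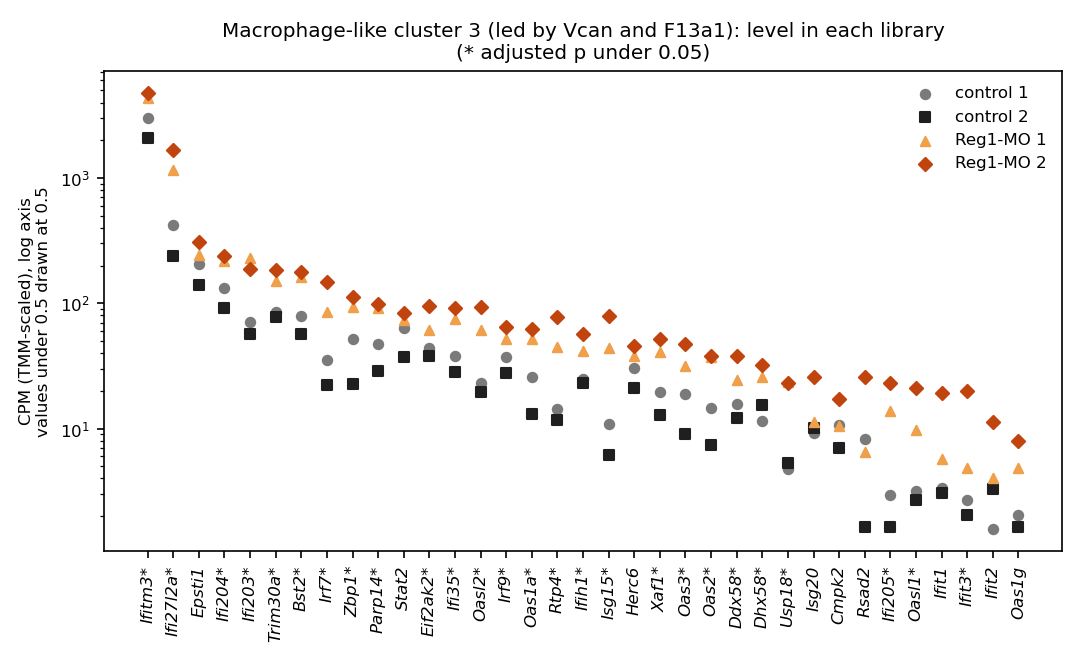
Level of each of the 35 genes tested in macrophage-like cluster 3, as TMM-scaled CPM on a log axis, with 1 point per library and an asterisk for an adjusted p under 0.05. Both Reg1-MO libraries lie above both controls for most genes, for instance Isg15 (43.8 and 79.4 against 10.8 and 6.17), while Rsad2 and Cmpk2 overlap.

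The 9 genes tested and not called in cluster 3 were Ifit1, Ifit2, Epsti1, Oas1g, Herc6, Stat2, Isg20, Rsad2 and Cmpk2. The calls depended on which library was left out, most of all on Reg1-MO 2, without which the median was 1.18. Markers of other classes were summed in this cluster as well. The 12 neutrophil markers summed to 3902 and 6375 CPM in the controls against 5748 and 1055, and the 12 macrophage markers to 60331 and 64687 against 42388 and 40768. The neutrophil sums overlapped between the groups and the macrophage sums did not, and their part in the result was not tested.

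The other large macrophage-like clusters gave smaller differences. In cluster 1, led by Cxcl9 and Ass1, 0 of 37 genes were called (0% of all genes). At an unadjusted p under 0.05, 15 were higher, for which no share over all genes is given. Control 2 held 137 cells of this cluster. All 37 were above 0 (49.3% of all genes) and the median was 0.65. In cluster 2, led by Gpnmb and Saa3, 0 of 37 were called (0% of all genes; 0 at an unadjusted p under 0.05) and the median was 0.21. Summed levels in cluster 2 were 4195 and 1812 CPM against 4186 and 3410, so the groups overlapped. Leaving out control 1 gave 33 calls in cluster 1 (1656 of all 12120 genes) and 27 in cluster 2 (1086 of all 12128 genes). Leaving out control 2 gave 0 calls in both; in cluster 2 the median was then -0.25, 6 of 37 genes were above 0 and 10 were lower at an unadjusted p under 0.05.

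Neutrophil-like cells, the first granulocytes at a lesion, had low levels of these transcripts. Of 35 genes tested, Ifi204 and Ifi27l2a rose, against 0.0849% of the 10600 genes tested, and 29 were higher at an unadjusted p under 0.05 (6.74% of all genes). The median was 1.00 against -0.01, and both Reg1-MO libraries were above both controls for 28 of 35 (20.7% of all genes). Control 2 was the lowest library for 33 of the 35, against 22.2% of all genes. Ifi204, a PYHIN regulator of myeloid transcription, was at 7.97 and 6.05 TMM-scaled CPM against 21.9 and 22.8 (log2 fold change 1.69 ± 0.20, adjusted p = 0.035). Ifi27l2a was at 77.8 and 42.8 against 225 and 260 (2.01 ± 0.26, adjusted p = 0.048). Neither gene overlapped between the groups, and both were called with each library left out in turn. With suspected doublets kept, neither was (log2 fold change 0.93, adjusted p = 0.668 for Ifi204 and 1.40, adjusted p = 0.525 for Ifi27l2a). Without control 1 the median was 1.41. Usp18 (1.90 ± 0.36, adjusted p = 0.097) and Parp14 (1.02 ± 0.20, adjusted p = 0.098) came next. Ifitm3 was at 947 and 672 against 1117 and 1928 (0.91 ± 0.28, adjusted p = 0.228).

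The difference was also measured in the less mature granulocytes. Cluster 8, led by the granule genes Ltf, Ngp and Camp, had 11 of 29 genes tested that rose (1.42% of all genes), with a median of 1.35 against -0.0047. They were Ifi27l2a, Oasl2, Isg15, Parp14, Irf7, Rtp4, Bst2, Rsad2, Ifitm3, Epsti1 and Irf9. Oasl2 was at 14.4 and 5.35 TMM-scaled CPM against 48.8 and 47.6 (2.35 ± 0.34, adjusted p = 0.0023). Bst2 was at 6.64 and 3.57 against 43.8 and 16.3 (2.32 ± 0.46, adjusted p = 0.015). The calls in cluster 8 depended on which library was left out and did not hold without Reg1-MO 2. In the more mature clusters 6 and 7 a single gene each rose, Ifi27l2a in cluster 6 (0.121% of all genes) and Ifi204 in cluster 7 (0.212% of all genes). These calls depended on which library was left out. Neither held without Reg1-MO 2, and that of cluster 6 did not hold without Reg1-MO 1.

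Cluster 12, the granulocyte-monocyte progenitor-like cells marked by Mpo and Elane, had 59 and 77 cells in the Reg1-MO libraries and 256 and 212 in the controls. Of 32 genes tested 11 rose (0.944% of all genes), with a median of 1.08 against 0.0049. Ifi27l2a went from 54.8 and 30.5 TMM-scaled CPM to 334 and 310 (2.91 ± 0.26, adjusted p = 0.0097), the largest change of a called gene in this cluster. Ifitm3 went from 616 and 553 to 1343 and 1368 (1.21 ± 0.11, adjusted p = 0.0097), and Trim30a from 32.7 and 31.1 to 76.3 and 69.3 (1.19 ± 0.14, adjusted p = 0.020). In each of the 3 the groups were far apart and the libraries of a group close together. The other called genes were Irf7, Xaf1, Isg15, Bst2, Zbp1, Usp18, Epsti1 and Ifi204. The neutrophil markers in this cluster summed to 32778 and 23597 CPM in the controls against 9933 and 16562.5, without overlap, and their part in the result was not tested. The calls in this cluster depended on which library was left out, and without control 2 only Ifi27l2a remained.

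Microglia-like cells, the resident macrophages of the cord, had a median log2 fold change near 0. Of 37 genes tested 0 were called by edgeR (0% of all genes), 0 at an unadjusted p under 0.05 (1.88% of all genes were higher and 1.09% lower) and 0 by DESeq2, with a median of 0.06 and 26 above 0 (50.7% of all genes). Both Reg1-MO libraries were above both controls for 6 of the 37 genes, against 17.7% of all genes. Usp18 had the smallest p, at 27.9 and 28.3 TMM-scaled CPM in the controls against 33.9 and 36.5 (0.32 ± 0.17, adjusted p = 0.990). Isg15 was at 111 and 37.6 against 122 and 144, and Stat2 at 82.5 and 101 against 78.5 and 70.7. Ifitm3 was at 1168 and 303 against 1191 and 817, so its groups overlapped. In this class the neutrophil markers summed to 17468 and 1897 CPM against 1889 and 10088, without following the groups. The class pools cluster 9, with 366 and 13 control cells against 825 and 195, and cluster 10, with 205 and 513 against 404 and 857. Unnamed cluster 27, whose closest marker list was microglia, held 20 and 272 control cells against 4 and 1. The part of this uneven mixture in the class values was not tested. Cluster 10, a microglia-like cluster with Olfml3, Fcrls and Gpr34 among its leading genes, had 0 of 37 called (0% of all genes; 0 at an unadjusted p under 0.05) and a median of -0.00.

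The difference between classes was tested as an interaction in edgeR with the library as a block. For microglia-like minus macrophage-like cells 0 of 37 genes were called (0% of all genes). Isg20 had a difference of log2 fold changes of -0.93 ± 0.21 (adjusted p = 0.970). For T-like minus macrophage-like cells 0 of 37 were called (0% of all genes). Epsti1 was at -0.99 ± 0.22 (adjusted p = 0.236) and Ddx58 at -1.05 ± 0.24 (adjusted p = 0.241). For neutrophil-like minus macrophage-like cells 0 of 37 were called (0.123% of all genes), with Bst2 at 1.02 ± 0.25 (adjusted p = 0.172). For cluster 10 minus cluster 3, a contrast added after the class results, 0 were called (0% of all genes). Oas2 was at -2.51 ± 0.40 and Usp18 at -2.01 ± 0.33 (both adjusted p = 0.283).

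**Figure D4:**
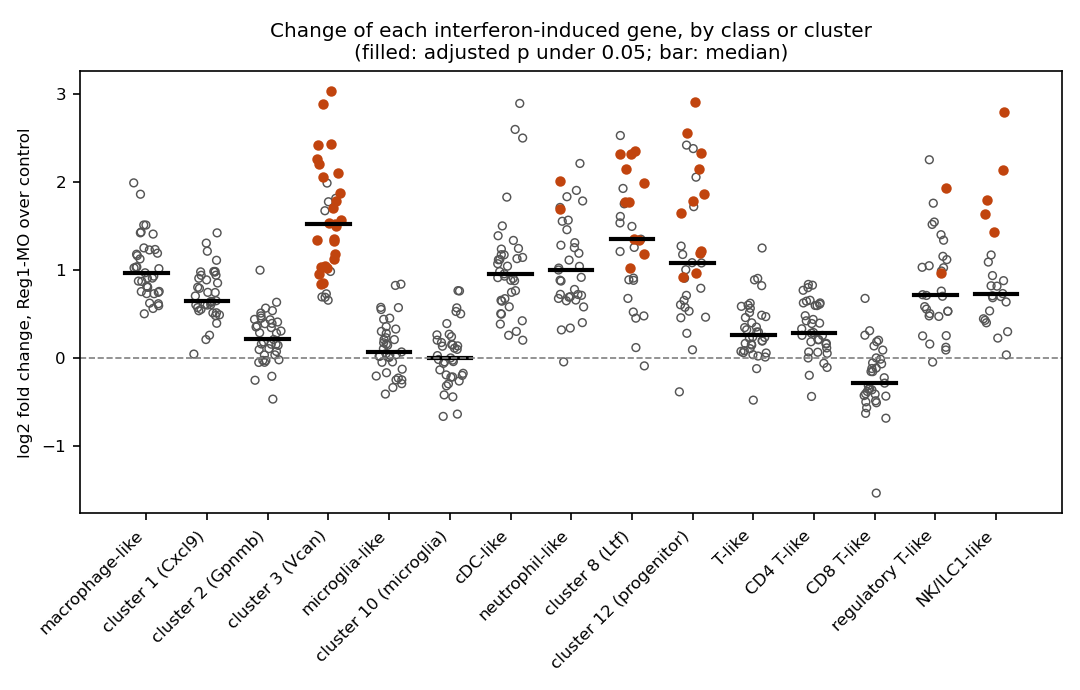
Log2 fold change (Reg1-MO over control, vertical axis) of each interferon-induced gene tested, by class or cluster, with filled points for an adjusted p under 0.05 and a bar at the median. Cluster 3 has the most filled points (26 of 35), cluster 10 is centred on 0, and CD8 T-like cells have their median below 0 (-0.29).

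In T-like cells 34 of 36 genes were above 0 (49.6% of all genes), and 20 were without control 2 and 21 without Reg1-MO 2. Of the 36 genes tested 0 were called by edgeR (0% of all genes), and DESeq2 called 2 (75 of all 20553 genes). At an unadjusted p under 0.05, 3 were higher (5.18% of all genes) and 1 lower (5.45%), and the median was 0.26 against -0.0020. Both Reg1-MO libraries were above both controls for 13 of 36 (22.1% of all genes). Ifi27l2a was at 576 and 453 TMM-scaled CPM in the controls against 839 and 977 (0.82 ± 0.15, adjusted p = 0.355). Epsti1, the most abundant member in the T-like controls, pointed the other way, at 818 and 903 against 629 and 601 (-0.48 ± 0.10, adjusted p = 0.403). Neither overlapped between the groups, and without control 1 the median over the 36 genes was 0.57. In CD4 T-like cells, the helper cells, 0 of 35 were called (0.0445% of all genes; 1 by DESeq2), and at an unadjusted p under 0.05, 3 were higher (6.53%) and 1 lower (6.9%), with Ifi27l2a at 447 and 354 against 647 and 781 (0.83 ± 0.14, adjusted p = 0.180) and Epsti1 at 643 and 866 against 557 and 552 (-0.44 ± 0.14). Leaving out either control led to calls there.

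CD8 T-like cells, the cytotoxic subset, and regulatory T-like cells, the suppressive subset marked here by Foxp3 and Ikzf2, had medians of opposite sign with all libraries. In CD8 T-like cells 0 of 33 genes were called (0% of all genes; DESeq2 called 1), 7 were above 0 (49.5% of all genes), 8 were lower at an unadjusted p under 0.05 (3.62% of all genes) and the median was -0.29 against -0.0031. Epsti1 was at 1488 and 1677 TMM-scaled CPM against 1051 and 987 (-0.63 ± 0.12, adjusted p = 0.381), the controls above both Reg1-MO libraries. Oas1a was at 28.5 and 11.0 against 6.39 and 8.99 (-1.54 ± 0.43), and Ifit2 at 36.5 and 29.2 against 23.8 and 20.8 (-0.57 ± 0.21), again without overlap. Without Reg1-MO 1 Epsti1 was called as lower, and without Reg1-MO 2 Ifitm3 was called as higher. The direction rested on control 1: without it the median was -0.020, 15 of 32 genes were above 0, and 4 of the 5 at an unadjusted p under 0.05 were higher.

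In regulatory T-like cells 31 of the 37 genes passed the filter on low counts and Isg15 and Ifi27l2a rose (0.103% of all genes), while 20 were higher at an unadjusted p under 0.05 (5.62% of all genes). The median was 0.71 against -0.01, and both Reg1-MO libraries were above both controls for 26 of 31 (21.5% of all genes). Isg15 was at 35.9 and 23.3 TMM-scaled CPM against 94.2 and 132 (1.93 ± 0.26, adjusted p = 0.032). Ifi27l2a was at 1412 and 1060 against 2440 and 2375 (0.96 ± 0.14, adjusted p = 0.036), the highest level of that gene in any T cell subset. Both were called in every alternative run, with each library left out in turn among them. Rsad2 was at 7.37 and 7.22 against 22.7 and 27.7 (1.76 ± 0.34, adjusted p = 0.067) and Bst2 at 155 and 78.7 against 261 and 239 (1.11 ± 0.25, adjusted p = 0.110). More genes were called with either control left out. The neutrophil markers in this subset summed to 842 and 1357 CPM against 565 and 2305, with overlap.

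The treatment effect was then compared between these 2 subsets, in a contrast chosen after their results had been seen. Isg15 and Rtp4 were called as lower in CD8 T-like than in regulatory T-like cells, 2 of 33 genes against 0.196% of all genes. For Isg15 the difference of log2 fold changes was -1.61 ± 0.24 (adjusted p = 0.0098) and for Rtp4 -1.46 ± 0.23 (adjusted p = 0.016). Of the 33 genes 2 had a difference above 0. Without Reg1-MO 1 neither gene was called, and with each other library left out more genes were called.

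**Figure D5:**
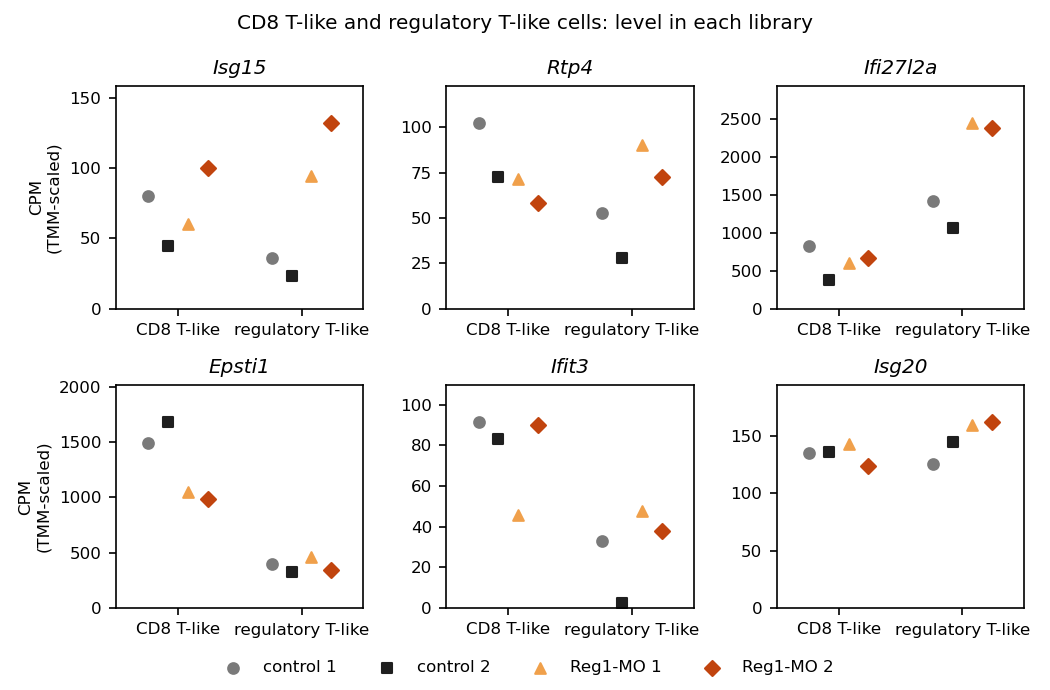
TMM-scaled CPM (vertical axes, from 0) of 6 genes in CD8 T-like and regulatory T-like cells, with 1 point per library. In regulatory T-like cells the Reg1-MO libraries lie above the controls for Isg15 (94.2 and 132 against 35.9 and 23.3), and in CD8 T-like cells they lie below the controls for Epsti1 (1051 and 987 against 1488 and 1677).

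NK/ILC1-like cells, innate lymphocytes that make interferon gamma, had few of these transcripts, and 23 of the 37 genes passed the filter. Of these Isg20, Xaf1, Irf7, Ifit3 and Isg15 rose (0.47% of all genes), all 23 were above 0 (49.5% of all genes) and the median was 0.73 against -0.0039. Isg20 was at 12.5 and 6.45 TMM-scaled CPM in the controls against 47.6 and 34.8 (2.13 ± 0.37, adjusted p = 0.0060), and Xaf1, a promoter of apoptosis, at 17.0 and 11.6 against 50.1 and 37.6 (1.64 ± 0.33, adjusted p = 0.015). Irf7 was at 18.2 and 23.2 against 66.0 and 39 (1.43 ± 0.31, adjusted p = 0.027). The 3 genes did not overlap between the groups, and Reg1-MO 1 was highest in each. Ifit3 was at 3.41 and 1.29 against 19.7 and 13.9 (2.80 ± 0.62, adjusted p = 0.029) and Isg15 at 5.68 and 11.6 against 32.4 and 25.1 (1.79 ± 0.42, adjusted p = 0.045), both from few molecules in the controls. Epsti1, the most abundant member here, was at 750 and 1058 against 945 and 898 (0.03 ± 0.15), within the spread of the controls. No gene was called without control 2 or without Reg1-MO 1, so these calls depended on single libraries.

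In conventional dendritic cell-like cells all 37 genes were above 0 (48.8% of all genes) with a median of 0.95 against -0.0093, and 0 were called (0% of all genes). At an unadjusted p under 0.05, 19 were higher (5.48% of all genes). Control 2 was the lowest library for 35 of the 37, against 32.8% of all genes. Ifi27l2a was at 393 and 184 TMM-scaled CPM in the controls against 646 and 992 (1.5 ± 0.37, adjusted p = 0.275). Ifit1 was at 13.5 and 2.90 against 30.02 and 73.1 (2.50 ± 0.64, adjusted p = 0.284). For both genes the Reg1-MO libraries were above the controls and control 2 was lowest. Ifitm3 was at 3014 and 1735 against 3017 and 3333 (0.42 ± 0.25), with control 1 and Reg1-MO 1 at the same level.

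Ifi27l2a and Isg15 recurred most: each rose in 5 of the single clusters fitted and was not called in the rest. Those of Ifi27l2a were cluster 3, the regulatory T-like cluster and clusters 6, 8 and 12, and those of Isg15 were cluster 3, the regulatory T-like and NK/ILC1-like clusters and clusters 8 and 12. Irf7 rose in 4 clusters, and Bst2, Ifi204, Ifitm3 and Xaf1 in 3 each. These clusters share the 4 libraries, so the counts are not independent of each other. How often other genes recurred is not given here.

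The ligands, receptors and signalling genes of the pathway were followed through 59 further genes in 7 lists. Interferon transcripts themselves were scarce. Ifnb1, the gene of interferon beta, had 45 UMIs in all cells, 41 of them in microglia-like cells, with 6, 6, 5 and 24 in control 1, control 2, Reg1-MO 1 and Reg1-MO 2. Most of these UMIs were from the single library Reg1-MO 2. Plasmacytoid dendritic cell-like cells held 0 UMIs of Ifnb1 in every library. The receptor gene Ifnar1 was at 63.2 and 47.3 TMM-scaled CPM in macrophage-like cells against 80.2 and 75.3 (0.49 ± 0.16, adjusted p = 0.231), and Ifnar2 at 231 and 218 against 272 and 273 (0.28 ± 0.11, adjusted p = 0.262). In both receptor genes the Reg1-MO libraries were above the controls, and neither was called.

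In macrophage-like cells 0 of the 37 pathway genes tested were called, and 33 were above 0. The median log2 fold change was 0.24 over the 4 receptor and kinase genes, 0.53 over 5 STAT and IRF genes, 0.18 over 9 upstream sensing genes, 0.37 over 4 feedback inhibitors, 0.65 over 4 genes of the interferon gamma arm and 1.15 over 11 targets known to respond mainly to interferon gamma. The smallest p of each list after Ifnar1 belonged to Irf8, a myeloid transcription factor (0.53 ± 0.16, adjusted p = 0.216), Myd88, the Toll-like receptor adaptor (0.65 ± 0.16, adjusted p = 0.209), Socs3, a feedback inhibitor (0.37 ± 0.12, adjusted p = 0.231), Jak2, a kinase of the interferon gamma receptor (0.87 ± 0.21, adjusted p = 0.209), and Ciita, the inducer of MHC class II genes (1.72 ± 0.46, adjusted p = 0.209). Ciita was at 38.2 and 14 against 88.6 and 84.2, again with control 2 lowest. The median of the interferon gamma targets was thus 1.15 beside 0.96 for the type I set, and both sets held no called gene.

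Over the 9 classes and subsets fitted, 2 pathway genes were called. Ifng, the gene of interferon gamma, rose in regulatory T-like cells from 24 and 28.9 to 210 and 156 TMM-scaled CPM (2.80 ± 0.23, adjusted p = 0.0034), in the same subset in which Isg15 and Ifi27l2a rose. Ifngr2, part of the interferon gamma receptor, fell in NK/ILC1-like cells from 21.6 and 45.2 to 6.35 and 2.78 (-2.64 ± 0.49, adjusted p = 0.0082). In both genes the groups did not overlap. Of all genes tested, 0.103% were called as higher in regulatory T-like cells and 0.444% as lower in NK/ILC1-like cells. The Ifngr2 levels in the Reg1-MO libraries rest on few molecules, in sums of 1609238 and 732649 UMIs.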

How the data were processed

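Droplet 3′ libraries (10x Genomics Chromium) of CD45+ spinal cord cells were sequenced, per the labels' protocols. The deposited matrices hold raw UMI counts per gene and barcode. Per the file headers, Cell Ranger 5.0.1 made them, and the submitters' processing notes name build mm10 and Seurat 4.0. CPM and TMM-scaled CPM were computed from these counts. The result for 1 pathway gene is not reported here. The members and gene lists were chosen with earlier results of these data known.

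Barcodes under 500 UMIs, under 200 genes or above 10% mitochondrial UMIs were removed. The highest Scrublet scores were removed at 0.8% per 1000 barcodes, in place of an automatic threshold that marked 0 to 421 cells. Clustering used scanpy 1.11.5 (3000 variable genes without the members, 40 components, 15 neighbours, Leiden resolution 1). Clusters were named from marker lists (score at least 0.25 and 1.5 times the second class, set after the clusters were seen), and 1439 cells stayed unnamed. Counts summed per library and class (at least 50 cells in each library) were tested with edgeR 4.0.16 (quasi-likelihood, TMM, filterByExpr with a minimum count of 10, Benjamini-Hochberg over all genes), after a check on simulated counts. Genes with values in full were taken from the called members of a class (up to 8), the smallest p where fewer than 4 were called, and the 4 members with the highest mean level; the genes contrasting classes and those of single clusters were chosen after their values were seen. Gene positions are from GENCODE M21 (GRCm38). Alternatives were DESeq2 1.42.0, no filter, a replicate block, each library left out, members among the variable genes, doublets kept, at most 5% mitochondrial UMIs and shared barcodes left out.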

Additional observations from a re-analysis of the deposited data

Results flagged for a closer look

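The response of Isg15 and Rtp4 to Reg1-MO differed between CD8 T-like and regulatory T-like cells by a test of the difference itself, in a contrast chosen after the class results had been seen. For Isg15, the ubiquitin-like modifier, the difference of log2 fold changes was -1.61. In TMM-scaled CPM, CD8 T-like controls were at 80.2 and 44.7 with Reg1-MO at 60.3 and 100.0, which overlapped. Regulatory T-like controls were at 35.9 and 23.3 with Reg1-MO at 94.2 and 132, which did not. For Rtp4 the difference was -1.46. CD8 T-like controls were at 102 and 72.6 with Reg1-MO at 71.8 and 58.4, and regulatory T-like controls at 52.5 and 28.1 with Reg1-MO at 90.4 and 72.4, so the Reg1-MO libraries were below the controls in the first subset and above them in the second. The regulatory T-like values of both genes rest on 29 to 270 UMIs per library.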

How the results depend on the processing

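Counts of called genes moved with the settings more than the direction did. Without a filter on low counts they were 37 in macrophage-like, 6 in T-like, 28 in neutrophil-like, 7 in CD4 T-like, 3 in CD8 T-like, 11 in regulatory T-like, 11 in NK/ILC1-like and 24 in conventional dendritic cell-like cells, where 2181, 552, 592, 623, 192, 396, 182 and 665 of all genes were called. The interactions then gave 11 for T-like and 4 for neutrophil-like minus macrophage-like cells, 17 for CD8 T-like minus regulatory T-like cells and 21 for cluster 10 minus cluster 3. For these interactions the counts over all genes are not given here, so they are not read as results about the members. DESeq2 called 3 macrophage-like, 2 T-like and 6 neutrophil-like genes, where 618, 75 and 129 of all genes were called. It also called 1 CD4 T-like, 1 CD8 T-like, 3 regulatory T-like and 2 conventional dendritic cell-like genes. Their counts over all genes are not given here, so these calls are not read as results about the members. In NK/ILC1-like cells DESeq2 called 0. There 34 members, the 5 called by edgeR among them, had no adjusted p, as had 28 in CD4 T-like and 5 in regulatory T-like cells. Keeping doublets left 0 calls in neutrophil-like cells, and a minimum of 50 CPM left 0 shared genes. With each library left out in turn the calls ranged from 0 to 37 in macrophage-like, 0 to 10 in T-like, 4 to 23 in neutrophil-like, 0 to 7 in CD4 T-like, 0 to 1 in CD8 T-like, 2 to 19 in regulatory T-like, 0 to 10 in NK/ILC1-like, 0 to 15 in conventional dendritic cell-like and 0 to 0 in microglia-like cells. They ranged from 0 to 33, 0 to 27, 1 to 29, 0 to 10, 0 to 17, 0 to 16, 0 to 2 and 1 to 19 in clusters 1, 2, 3, 6, 7, 8, 10 and 12, and the interactions from 0 to 21, 0 to 24, 0 to 11, 0 to 12 and 0 to 14 in the order of the text, with CD8 T-like minus regulatory T-like cells before cluster 10 minus cluster 3. A fit with a library left out has a single library in that group. Calls over all genes moved in such fits as well, so these counts show only how far the calls depend on each library. Shared genes numbered 3 to 4. The medians ranged from 0.39 to 1.98, -0.09 to 0.33, 0.081 to 0.57, 0.67 to 1.41, 0.047 to 0.64, -0.47 to -0.020, 0.53 to 1.05, 0.67 to 1.16 and 0.51 to 1.58 in macrophage-like, microglia-like, T-like, neutrophil-like, CD4, CD8 and regulatory T-like, NK/ILC1-like and conventional dendritic cell-like cells. In the same clusters they ranged from 0.35 to 1.41, -0.25 to 1.18, 1.13 to 1.85, 0.40 to 1.15, 0.55 to 1.35, 0.92 to 1.75, -0.28 to 0.34 and 0.73 to 1.22. Log2 fold changes that changed sign with a library left out ranged from -0.22 to 1.71 for Ifitm3 and -0.22 to 0.27 for Ifi204 in microglia-like cells, -0.28 to 0.41 for Ifitm3 in T-like and -0.54 to 0.27 in CD4 T-like cells, -0.37 to 0.79 for Ifi27l2a and -0.15 to 0.041 for Ifi203 in CD8 T-like cells, -0.077 to 0.37 for Epsti1 in regulatory T-like cells and -0.19 to 0.30 in NK/ILC1-like cells, where keeping doublets gave -0.0048. The cause was not tested. Same-numbered samples correlated over genes at -0.013 to 0.33 in their deviations. With 2 pairs this cannot decide whether the numbers pair the samples, and the main fits did not pair them. The replicate block gave 21 calls in neutrophil-like cells (351 of all 10600 genes). It also gave 9 in regulatory T-like and 3 in NK/ILC1-like cells, for which the counts over all genes are not given here. It gave no other change in the count of a class. Conventional dendritic cell-like cells gave no value with members among the variable genes. Depth was lowest in cluster 18 (255728 to 887186 UMIs per library), cluster 6 (from 363500), cluster 8 (from 574141) and NK/ILC1-like cells (from 732649), which limits what could be detected there.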

Other observations

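In 3 of the 4 libraries an unnamed cluster held more RNA of the 37 genes than any named class. Cluster 18, led by Cxcl3, Acod1 and Cxcl2 and with few UMIs per cell, held 9623 and 2692 CPM against 11794 and 12187. Rsad2 there was at 1008 and 164 against 1013 and 1590, and Isg15 at 675 and 97.8 against 802 and 1216, so control 2 stood apart from the other 3 libraries. Thinned to 2000 UMIs, its median cells held 12 and 3 UMIs against 23 and 19, with unthinned medians of 17, 5, 34.5 and 33. The 10% of cells with the most held 21.6% to 45.8% of the thinned UMIs. The thinned values leave out cells under 2000 UMIs, in a cluster whose median cell had 3070. This cluster numbered 267 and 132 cells in the controls against 74 and 94. Of 33 genes tested 0 were called by edgeR (0% of all genes).

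Of the clusters that made up the CD4 T-like cells, 2 had different levels of the IFIT gene Ifit3. Cluster 5, led by Ccl1 and Nrgn, also belonged to this subset, and its Ifit3 level is not given here. Cluster 4, led by Cd40lg and Tcf7 among others, held 58.0 and 43.5 CPM of Ifit3 in the controls against 43.3 and 81.4, and cluster 16, led by Il18r1 and Rora, 9.09 and 2.65 against 4.91 and 4.86. All libraries of cluster 4 were above all libraries of cluster 16, and within each cluster the treatment groups overlapped. These clusters were chosen after their values were seen.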
